A study of Mus musculus with 47 samples.

Results

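Tmem106b, which encodes a membrane glycoprotein of late endosomes and lysosomes, was examined together with 44 other lysosomal genes in the hippocampus of young and old mice given platelet factor 4 (PF4) or vehicle. The 45 genes were taken by name from the 35486 genes of the count table, as a list of lysosomal hydrolases, lysosomal membrane proteins, subunits of the lysosomal proton pump and transcriptional regulators of lysosomal genes. All 45 were in the table and all 45 passed the filter on low counts, which 17778 genes of the table passed.

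Hippocampal RNA was measured in 47 male C57BL/6J mice, 1 library per mouse. The groups were Young Veh (vehicle, n = 13), Young PF4 (mouse PF4, n = 12), Old Veh (vehicle, n = 12) and Old PF4 (mouse PF4, n = 10), with vehicle or PF4 given by systemic injection. Young mice were 3.75 to 5.26 months old and old mice 17.4 to 20.23 months old. PF4 is a chemokine that platelets release, and the comparisons asked how the hippocampal transcriptome differed with age and whether PF4 given systemically altered it.

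Lysosomes are acidic compartments in which hydrolases break down proteins, glycans and lipids delivered by endocytosis and autophagy. A V-type ATPase pumps protons into the lumen, heavily glycosylated membrane proteins line the boundary, and the transcription factors Tfeb and Tfe3 drive many genes of the pathway through E-box elements in their promoters. TMEM106B interacts with the proton pump and modifies the risk of frontotemporal dementia linked to progranulin (Grn), and its C-terminal fragment forms filaments in the brains of elderly people.

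Libraries held between 2242879 and 21112908 counted reads (median 10374007), and 8 of them held fewer than 5000000. Of these 8, 4 were Old Veh, 2 Young PF4, 1 Young Veh and 1 Old PF4, and Old Veh had the lowest median depth of the 4 groups. Tmem106b was counted with 501 to 4352 reads per library. Choroid plexus markers differed widely within every group, with a summed level over 10 genes of 12.0 to 4259 CPM (counts scaled to library size, TMM-normalized) in Young Veh (median 1943), 94.0 to 3448 in Young PF4 (median 2380), 15.1 to 4259 in Old Veh (median 47.1) and 25.9 to 3280 in Old PF4 (median 65.9). The summed level of 10 microglial markers was 328 to 399 CPM in Young Veh, 329 to 403 in Young PF4, 352 to 463 in Old Veh and 377 to 554 in Old PF4. None of these markers was at 0 in all libraries, and astrocyte, oligodendrocyte and hippocampal neuron markers were present throughout. In bulk tissue, fewer cells of a type and less RNA per cell cannot be told apart. Libraries were numbered 1 to 12 in Old Veh, 13 to 23 in Old PF4 and 24 to 48 in the young groups, where vehicle and PF4 numbers overlapped. The order of the numbers can therefore be told apart neither from age nor, in old mice, from treatment.

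Compared per length of the longest annotated transcript, the members spanned a wide range of levels. Psap, the precursor of the saposins that assist sphingolipid hydrolases, was highest at 343 CPM per kb, followed by the proton pump subunits Atp6v1b2 (310 CPM per kb) and Atp6v1a (216 CPM per kb), the membrane protein Lamp1 (187 CPM per kb) and the aspartic protease Ctsd (179 CPM per kb). Tmem106b ranked 18 of 45, at 39.3 CPM per kb, next to Lamp2 at 43.1 and Arsb at 36.8. The lowest levels were those of Gla, the alpha-galactosidase that is deficient in Fabry disease (1.49 CPM per kb), the sulfatase Galns (3.00 CPM per kb) and Tfeb (3.73 CPM per kb). Differences between genes were far larger than those between groups.

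**Figure D1:**
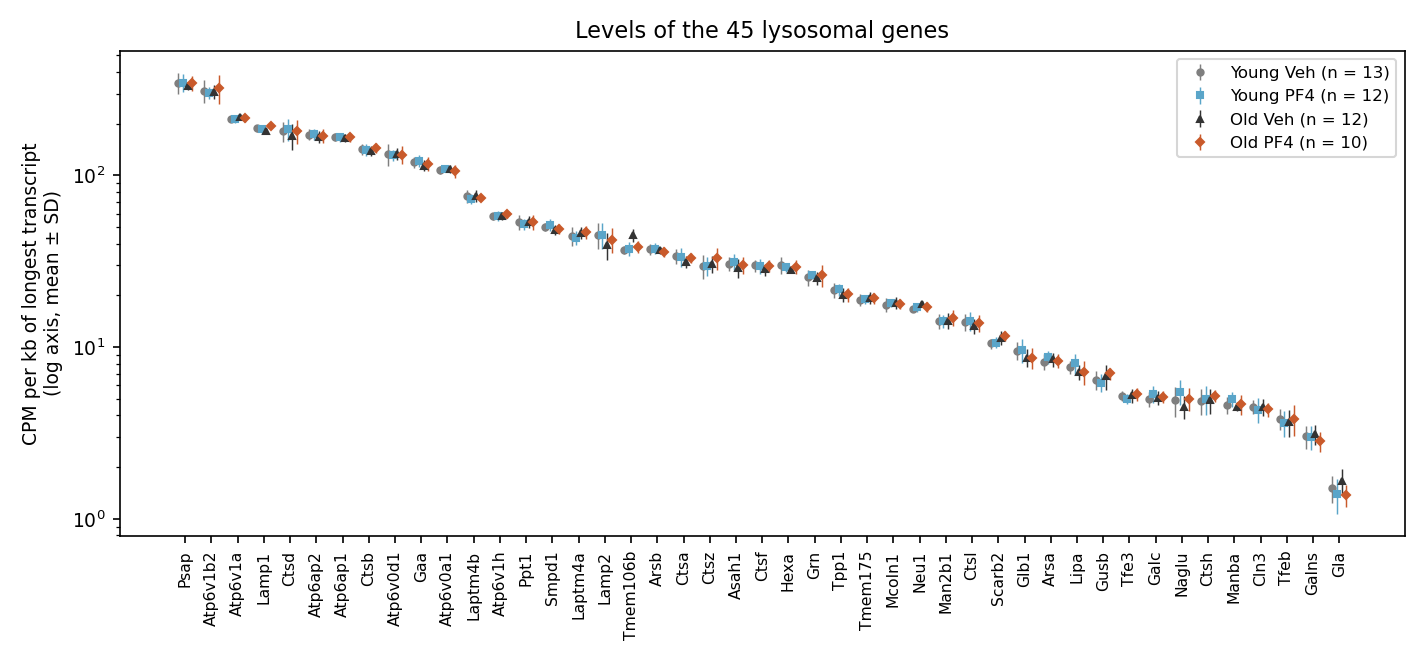
Levels of the 45 lysosomal genes as CPM per kb of longest transcript on a log axis, with 1 marker per group (mean) and bars for the SD over mice, ordered from highest to lowest. The 4 groups lay close together for nearly every gene, from Psap at 343 CPM per kb to Gla at 1.49.

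Promoters of a minority of the members held the element that Tfeb and Tfe3 bind. The E-box CACGTG, which is its own reverse complement, was present in the 300-base RefSeq promoters (250 bases before to 50 bases after the start, GRCm38.p6) of 14 of the 38 members with an entry (36.8%), against 8.09% of 27025 genes. The flanked form TCACGTGA, which contains the shorter motif, was present in 7 of the 38 members (18.4%) against 1.12% of genes. The promoter of Tmem106b held neither set of letters. Windows around the E-box (in capitals) are shown for members of different roles whose values are described, the proteases Ctsd and Ctsa, the proton pump subunit Atp6v1a and the glycosidases Glb1 and Gla, each written 5′ to 3′ in the sense of the gene. A match describes the letters and is not evidence of binding.
Ctsd, chr7:142387908-142387937, minus strand: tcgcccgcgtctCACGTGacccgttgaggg
Ctsa, chr2:164833749-164833778, plus strand: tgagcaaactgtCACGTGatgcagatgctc
Atp6v1a, chr16:44139373-44139402, minus strand: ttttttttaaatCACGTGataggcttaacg
Glb1, chr9:114401018-114401047, plus strand: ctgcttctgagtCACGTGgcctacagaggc
Gla, chrX:134601182-134601211, minus strand: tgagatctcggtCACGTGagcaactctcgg

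Tmem106b rose with age in vehicle-treated mice. It lies on chromosome 6 of GRCm38, from 13069759 to 13089269 on the plus strand, and no other annotated gene overlaps it. In Young Veh its level ran from 202 to 244 CPM (median 217), and in Old Veh from 231 to 303 CPM (median 269). The groups overlapped, with 10 of 12 Old Veh mice above every Young Veh mouse and 12 of 12 above the Young Veh median. The means were 220 ± 12.2 CPM (SD, n = 13) and 269 ± 21.7 CPM (SD, n = 12), a log2 fold change of 0.29 (SE 0.046), with an adjusted p of 5.36e-05 in the quasi-likelihood test of edgeR, adjusted over all genes tested by Benjamini-Hochberg.

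Tmem106b was the 1 member of 45 past the threshold of 0.05 in this comparison (2.22%), near the share of all genes tested (2.77%, 492 of 17778). The list was chosen with earlier results of these data known. Tmem106b had the smallest p and the largest log2 fold change among the members. Of the other 44 members, 20 were higher and 24 lower in Old Veh, with a median log2 fold change of -0.02, against -0.01 over all genes tested, and a range from -0.20 to 0.16. An unadjusted p below 0.05 was found for 4 of the 45 members, against 15.2% of all genes.

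**Figure D2:**
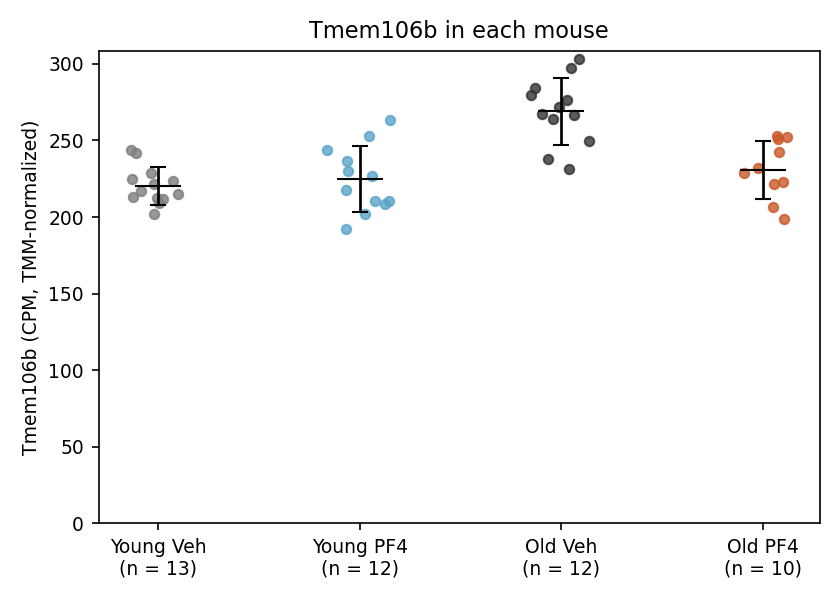
Tmem106b in CPM (TMM-normalized) by group, with 1 point per mouse and the mean ± SD as a black bar, on an axis from 0. Old Veh mice sat between 231 and 303 CPM, and Young Veh mice between 202 and 244 CPM, Young PF4 between 192 and 263 and Old PF4 between 199 and 253.

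Tmem106b was lower in Old PF4 than in Old Veh, without passing the threshold in the edgeR test. In Old PF4 it ran from 199 to 253 CPM (median 230), with 5 of 10 mice below every Old Veh mouse and 10 of 10 below the Old Veh median. The mean was 231 ± 19.1 CPM (SD, n = 10), a log2 fold change of -0.22 (SE 0.049) with an unadjusted p of 4.69e-05 and an adjusted p of 0.0833 in edgeR's quasi-likelihood test. DESeq2, the tool named in the study's methods, gave the same log2 fold change of -0.22 with an adjusted p of 0.0167. DESeq2 was run on 27514 genes without the edgeR filter on low counts, and its adjustment left out some of them. The 2 fits therefore differ in the genes tested as well as in the test. The unadjusted p of Tmem106b was 1.20e-05 in DESeq2's test. Across all genes, edgeR called 0.0337% here (6 of 17778) and DESeq2 24. Of the members, edgeR called 0 of 45 and DESeq2 1. An unadjusted p below 0.05 in edgeR was found for 3 of 45, near the share of all genes (6.20%).

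In young mice the level of Tmem106b with PF4 did not differ detectably from that with vehicle. Young PF4 mice had 192 to 263 CPM (median 222), a spread that covered the whole Young Veh range, with a mean of 225 ± 21.5 CPM (SD, n = 12) and a log2 fold change of 0.03 (SE 0.046, adjusted p = 1.00 in edgeR's quasi-likelihood test). With PF4 at both ages, old mice differed from young mice by 0.04 on the log2 scale (SE 0.049, adjusted p = 0.896 in the same edgeR test), and 7 of 10 Old PF4 mice were above the Young PF4 median. The difference between the PF4 effects in old and young mice was -0.25 (SE 0.068), the lowest of the 45 members, with an unadjusted p of 6.48e-04 and an adjusted p of 0.829 in edgeR's test, so it did not pass the threshold.

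Several library measures moved with the groups, and their part in the Tmem106b differences was examined only by entering them as covariates. The length index of a library, the mean gene-centred log2 CPM of long transcripts (at least 4594 bases) minus that of short ones (at most 2006 bases), averaged -0.02 in Young Veh, 0.00 in Young PF4, 0.04 in Old Veh and -0.02 in Old PF4, and the longest Tmem106b transcript has 6002 bases. The Young Veh and Old PF4 means rest on 1 library each, replicate 4 at -0.35 and replicate 8 at -0.23, and the group medians were 0.01, 0.00, 0.04 and 0.01 in the same order. With this index as a covariate the age difference was 0.26 (adjusted p = 1.47e-04 in edgeR's test) and the PF4 difference in old mice -0.19 (adjusted p = 0.179). With the microglial markers as a covariate these were 0.36 (adjusted p = 8.53e-05) and -0.19 (adjusted p = 0.308), and with the choroid plexus markers 0.31 (adjusted p = 5.80e-05) and -0.23 (adjusted p = 0.0494). Without the 8 libraries of fewer than 5000000 reads they were 0.26 (adjusted p = 0.00437) and -0.21 (adjusted p = 0.345). The difference between Old PF4 and Young PF4 lay between 0.03 and 0.15 over 11 settings and was called in none. With microglial markers as a covariate it was 0.15 (SE 0.068, unadjusted p = 0.0317 and adjusted p = 0.642 in edgeR's test).

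**Figure D3:**
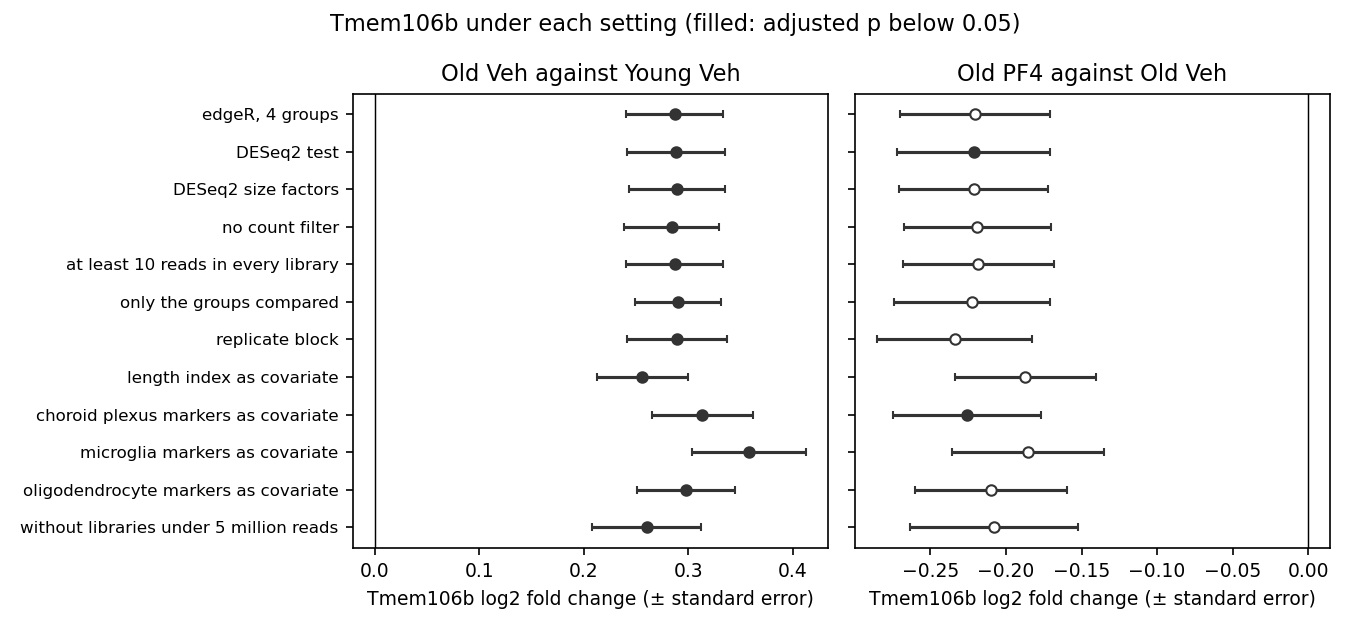
Log2 fold change of Tmem106b (± standard error) for age (left) and for PF4 in old mice (right) under each test, filter and covariate, with filled points for an adjusted p below 0.05. The age difference lay between 0.26 and 0.36 and was called in every setting shown, whereas the PF4 difference lay between -0.23 and -0.19 and was called with DESeq2 and with the choroid plexus covariate.

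To set Tmem106b against other members within each mouse, its reads were divided by those of Lamp1, Grn and Ctsd, so that library size cancels. Transcript length does not cancel, as the longest transcript has 6002 bases for Tmem106b, 2229 for Lamp1, 2340 for Grn and 2127 for Ctsd. Relative to Lamp1, the log2 ratio ran from -1.12 to -0.69 in Young Veh (median -0.94) and from -0.85 to -0.36 in Old Veh (median -0.58), with 9 of 12 Old Veh mice above every Young Veh mouse. The difference of 0.33 had an adjusted p of 2.40e-04 (two-sided permutation test with 100000 resamples, Benjamini-Hochberg over 12 ratio tests). In Old PF4 the ratio ran from -1.06 to -0.74 (median -0.93), 6 of 10 mice lay below every Old Veh mouse, and the difference from Old Veh was -0.32 (adjusted p = 7.20e-04, permutation test).

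The ratios to Grn, which encodes the lysosomal glycoprotein progranulin, and to Ctsd, which encodes cathepsin D, moved the same way. With age the ratio to Grn rose by 0.30 (adjusted p = 0.00144, permutation test) and the ratio to Ctsd by 0.39 (adjusted p = 0.00222, permutation test). With PF4 in old mice they differed by -0.27 and -0.32 (adjusted p = 0.0208 for each, permutation test), and without the libraries of fewer than 5000000 reads neither passed (adjusted p = 0.0865 and 0.0612, permutation test). In young mice PF4 differences were 0.04 for Lamp1, -0.04 for Grn and -0.01 for Ctsd, and Old PF4 differed from Young PF4 by -0.03, 0.07 and 0.08, with adjusted p of 0.692 to 0.893 in these 6 permutation tests. All 12 ratios share the Tmem106b counts, and the age differences in vehicle mice and the PF4 differences in old mice rest on the same Old Veh mice. Tmem106b was chosen with earlier results of these data known, and the ratio p values are not adjusted for that choice. Over all genes, its edgeR adjusted p for PF4 in old mice was 0.0833. With the regression on the length index removed, both differences still passed for each partner. In the alternatives run, the Lamp1 ratio differed by 0.28 to 0.33 with age and by -0.32 to -0.26 with PF4 in old mice.

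Unlike Tmem106b, the 3 partner genes overlap other genes. Lamp1 (200645 reads over all libraries) overlaps Grtp1 (24831 reads) and Grn (29199 reads) overlaps Fam171a2 (19939 reads) on the opposite strand, and in unstranded libraries reads from the shared stretches cannot be told apart. Ctsd (181669 reads) overlaps Gm49369 (89206 reads) on the same strand. Ctsd also moved with the choroid plexus markers, and its age difference was -0.09 (SE 0.083) without and 0.06 (SE 0.059) with those markers as a covariate. For Lamp1 the 2 values were -0.04 and -0.02, and for Grn -0.02 and -0.05. With PF4 in old mice the partners themselves were at 0.10 (Lamp1), 0.06 (Grn) and 0.10 (Ctsd), so the ratio differences hold the partners' differences as well as that of Tmem106b.

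**Figure D4:**
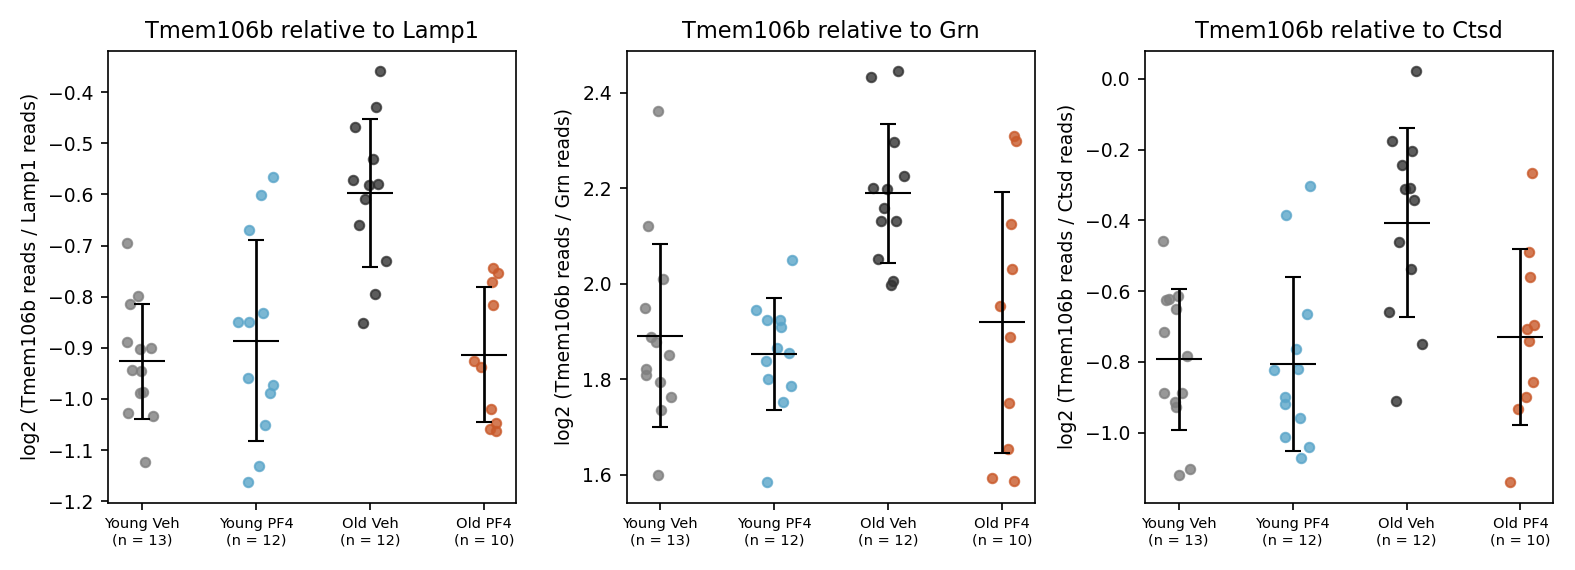
Log2 ratio of Tmem106b reads to Lamp1, Grn and Ctsd reads by group, with 1 point per mouse and the mean ± SD as a black bar. Old Veh had the highest mean in each panel (-0.60, 2.19 and -0.41). Means were -0.91, 1.92 and -0.73 in Old PF4 and -0.93, 1.89 and -0.79 in Young Veh, and these groups were not tested against each other.

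Among the other membrane proteins, 5 of 8 were higher and 3 lower in Old Veh than in Young Veh, and none was called. Scarb2, the receptor that carries glucocerebrosidase to lysosomes, had 43.2 to 54.5 CPM in Young Veh (median 50.9) and 45.9 to 58.2 CPM in Old Veh (median 55.5), with 7 of 12 Old Veh mice above every Young Veh mouse. Its log2 fold change was 0.11 (SE 0.046, adjusted p = 0.228 in edgeR's test), and 0.05 with microglial markers as a covariate (adjusted p = 0.75). Lamp2, which serves chaperone-mediated autophagy, was the lowest member with age, at -0.20 (SE 0.094, adjusted p = 0.308 in edgeR's test). Lamp2 ran from 125 to 213 CPM in Young Veh and from 118 to 206 CPM in Old Veh, and its difference was 0.02 with choroid plexus markers as a covariate.

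Lamp1, the most abundant of these membrane proteins, differed little with age (-0.04, SE 0.030) and was higher in Old PF4 than in Old Veh. It ran from 389 to 429 CPM in Old Veh (median 402) and from 411 to 465 CPM in Old PF4 (median 431), with 6 of 10 Old PF4 mice above every Old Veh mouse and 10 of 10 above the Old Veh median. The log2 fold change of 0.10 (SE 0.032) had the smallest p after Tmem106b (unadjusted p = 0.00385, adjusted p = 0.472 in edgeR's test). Laptm4b, a lysosomal transmembrane protein, differed by -0.05 in young mice (SE 0.043). The difference of the PF4 effects was 0.11 for Lamp1 (SE 0.043, adjusted p = 1.00 in edgeR's test).

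Of the 10 glycosidases, which trim sugars from glycoproteins, glycolipids and glycosaminoglycans, 5 were higher and 5 lower with age. Neu1, the lysosomal sialidase, came second to Tmem106b by p. It had 56.5 to 66.2 CPM in Young Veh (median 59.9) and 61.0 to 69.4 CPM in Old Veh (median 64.8), and 12 of 12 Old Veh mice were above the Young Veh median. Its log2 fold change of 0.11 (SE 0.033) missed the threshold (adjusted p = 0.0751 in edgeR's test) and passed it with the length index as a covariate (adjusted p = 0.0467) and without Young Veh replicate 7. With microglial markers as a covariate it was 0.07 (adjusted p = 0.487), and with choroid plexus markers 0.09 (adjusted p = 0.198).

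Gla and Glb1 marked the ends of the glycosidases with age, at 0.16 (SE 0.105) and -0.12 (SE 0.077), and neither was called. Glb1 was at 0.01 with choroid plexus markers and -0.03 with microglial markers as a covariate, and Gla at 0.17 and 0.09, so the lower end of the glycosidases depended on the setting. Glb1 encodes the lysosomal beta-galactosidase whose activity is used as a stain for senescent cells. Gla had 4.15 to 7.07 CPM in Old Veh (median 5.48) and 3.31 to 5.30 CPM in Old PF4 (median 4.41), with 10 of 10 Old PF4 mice below the Old Veh median. That log2 fold change, -0.27 (SE 0.114), was the lowest of the members for PF4 in old mice, from 16 to 95 reads per library in Old Veh, and its adjusted p was 0.708 in edgeR's test. Naglu, which degrades heparan sulfate, was the highest, at 0.15 (SE 0.105).

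Of the 8 proteases, 2 were higher and 6 lower with age, between -0.11 for Ctsa, the carboxypeptidase that protects Neu1 and Glb1, and 0.04 for Ctsz. That split was not stable, with 5 of 8 higher when choroid plexus markers were a covariate and 0 of 8 when microglial markers were. With PF4 in old mice 8 of 8 were higher than in Old Veh, by 0.00 (Tpp1) to 0.11 (Ctsz) on the log2 scale, with a median of 0.07, where 9596 of 17778 genes were higher. With choroid plexus or oligodendrocyte markers as a covariate 7 of 8 were higher. In the same comparison 9 of 10 microglial markers (median 0.10) and 10 of 10 oligodendrocyte markers (median 0.07) were higher. With the microglial markers as a covariate 8 of 8 proteases were higher, Ctsz by 0.05, while Ctsl went from 0.07 to 0.10. With the length index 8 of 8 were higher, with Ctsb at 0.01, Ctsa at 0.02 and Ctsd at 0.11. The part of these measures in the protease values was not tested. None of the proteases was called in either comparison, and their smallest unadjusted p values were 0.0637 and 0.172 in edgeR's test. Both comparisons share the Old Veh mice.

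The remaining roles stayed within narrow ranges in the age comparison without covariates. The luminal glycoproteins were at -0.02 (Grn) and -0.06 (Psap), the sulfatases between -0.02 (Arsb) and 0.05 (Galns), and the lipid hydrolases between -0.11 (Lipa, the acid lipase) and 0.01 (Ppt1). The 7 proton pump genes lay between -0.05 (Atp6ap2) and 0.04 (Atp6v1a). Tfeb was at -0.05 (SE 0.097) and Tfe3 at 0.01 (SE 0.050). None of these genes passed the threshold, and with choroid plexus markers as a covariate 7 of the 44 members other than Tmem106b shifted by more than 0.1. With microglial markers as a covariate 3 of the 44 did, and Galns was then at 0.19.

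**Figure D5:**
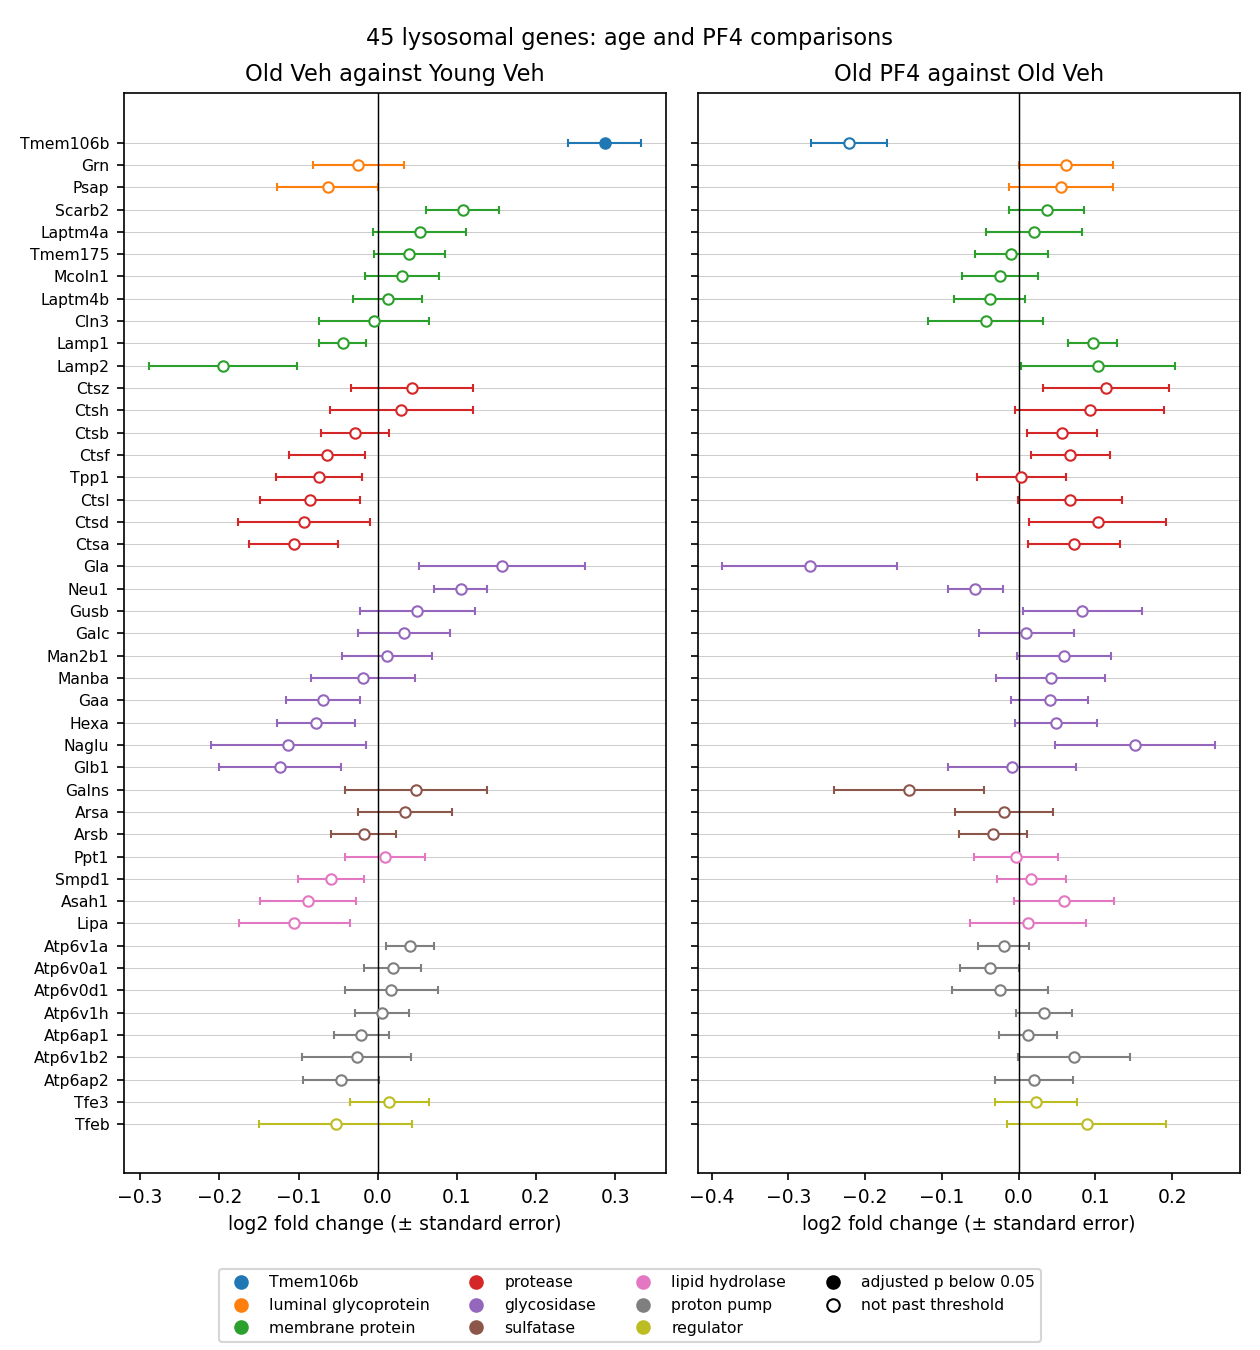
Log2 fold changes (± standard error) of the 45 lysosomal genes, coloured by role, for Old Veh against Young Veh (left, 12 and 13 mice) and Old PF4 against Old Veh (right, 10 and 12 mice), with filled points for an adjusted p below 0.05. Tmem106b at 0.29 stands right of all other members on the left, whose highest is Gla at 0.16, and on the right it lies at -0.22 with Gla at -0.27.

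With PF4 in old mice 30 of the 44 other members were higher than in Old Veh, with a median log2 fold change of 0.03 against 0.01 over all genes tested. Galns was at -0.14 (SE 0.097) and was not called. In young mice 0 of 45 members and 0% of all genes were called by edgeR, 0 members had an unadjusted p below 0.05 (213 of all genes did), and DESeq2 also called 0 genes. The 5 members with the smallest p there were Manba at 0.12 (SE 0.065), Galc at 0.10 (SE 0.057), Naglu at 0.16 (SE 0.095), Arsa at 0.08 (SE 0.059) and Laptm4b, with an unadjusted p of at least 0.0700 in edgeR's test.

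In PF4-treated mice alone, 0 of 45 members were called between old and young by edgeR and by DESeq2, where 0.332% of all genes were called (59 of 17778). An unadjusted p below 0.05 was found for 4 of 45 members, near the share of all genes (8.27%). The smallest p values belonged to Scarb2 at 0.13 (SE 0.049, adjusted p = 0.360 in edgeR's test), the beta-glucuronidase Gusb at 0.19 (SE 0.077), Lamp1 at 0.07 (SE 0.032), Lipa at -0.16 (SE 0.074) and Ctsz at 0.16 (SE 0.082). Over 11 settings Scarb2 ran from 0.05 to 0.15, Gusb from 0.16 to 0.23 and Lamp1 from 0.03 to 0.09. Lipa ran from -0.21 to -0.04 and Ctsz from -0.04 to 0.24. With microglial markers as a covariate 13 of the 44 members other than Tmem106b shifted by more than 0.1. For the difference of PF4 effects between ages, 0 of 45 members and 0% of all genes were called by edgeR and by DESeq2, with 2 of 45 members (Tmem106b and Lamp1) and 707 genes at an unadjusted p below 0.05. Neu1 at -0.09 (SE 0.049), Gusb at 0.14 (SE 0.105) and Arsa at -0.10 (SE 0.087) followed. No member had groups that did not overlap in any of the 4 pairwise comparisons, which 0.0619% of all genes had for age in vehicle mice.

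A further 101 genes of the pathway (other lysosomal enzymes, membrane proteins, proton pump subunits, and sorting and mTORC1 signalling genes) were listed by role. With age 2 of 101 were called (1.98%, against 2.77% of all genes) and both rose, Laptm5 by 0.27 (SE 0.055, adjusted p = 0.00190 in edgeR's test) and Ctss by 0.32 (SE 0.087, adjusted p = 0.0274). Ctss encodes cathepsin S and Laptm5 a lysosomal membrane protein of blood-lineage cells, and both are known to be enriched in microglia. Ctss had 41.6 to 79.2 CPM in Young Veh (median 50.4) and 53.2 to 83.7 CPM in Old Veh (median 64.2), and the groups overlapped, with the lowest Old Veh mouse above the Young Veh median.

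In PF4-treated mice 4 of 101 were called between old and young, against 0.332% of all genes, among them Ctss (0.52, adjusted p = 0.00179 in edgeR's test), Laptm5 (0.29, adjusted p = 0.00964) and the phagosomal metal transporter Slc11a1 (0.77, adjusted p = 0.00964), all higher with age. The 10 microglial markers were all higher in old mice in both age comparisons, with 2 and 4 of them called. With those markers as a covariate the age difference was 0.07 for Ctss and 0.10 for Laptm5 in vehicle mice, and in PF4-treated mice 0.14 for Ctss, 0.03 for Laptm5 and 0.48 for Slc11a1, none of them called. Other settings also ended calls. In vehicle mice Ctss was at 0.32 with choroid plexus markers (adjusted p = 0.0556 in edgeR's test), 0.28 with oligodendrocyte markers (0.0673) and 0.34 without low-depth libraries (0.0913). In PF4-treated mice, oligodendrocyte markers as a covariate gave 0.42 for Ctss (adjusted p = 0.10 in edgeR's test) and 0.21 for Laptm5 (0.330). Leaving out low-depth libraries gave 0.26 for Laptm5 (0.0620) and 0.71 for Slc11a1 (0.0565). PF4 in old mice called 0 of the 101 by edgeR, with 5 at an unadjusted p below 0.05.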

How the data were processed

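Hippocampal RNA of 47 mice was sequenced from unstranded Smart-Seq2 and Nextera XT libraries. Per the labels' processing notes, Trim Galore 0.3.7 (trimming), STAR 2.5.3a (alignment), the build GRCm38 and DESeq2 were used. The values that the authors deposited are unnormalized read counts for each gene; the counting tool is not given in the sources used here, and their methods excluded low-coverage samples. Groups came from the age and treatment in the labels.

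The counts were fitted as deposited with edgeR 4.0.16 (quasi-likelihood test, TMM, filterByExpr, 4 groups in 1 fit) in R 4.3.3, over 17778 genes, with calls at a Benjamini-Hochberg adjusted p below 0.05. Standard errors were obtained as the size of the log2 change over the root of its F statistic. Ratios added 0.5 to each count and were compared with permutation tests (SciPy 1.17.1). They were also run without the added 0.5, without low-depth libraries and with their regression on the length index removed. Of these steps, only the edgeR fit for Old Veh against Young Veh was tested on simulated data. Transcript lengths and overlaps came from an annotation of GRCm38. Alternatives were the test and the size factors of DESeq2 1.42.0, no or a stricter filter on counts, a fit of the compared groups only, the replicate number as a block, 4 covariates (length index and choroid plexus, microglial and oligodendrocyte markers), removal of low-depth libraries and of each library.

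The members and lists were chosen with earlier results of these data known. The text names Tmem106b, called members, the 5 members of smallest p per comparison, the extremes of each role with age, and called pathway genes, of which 1 is not reported here; Tpp1, the lower end of the proteases with PF4, was named after its value was seen, as were the most abundant genes and the neighbours of Tmem106b in level.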

Additional observations from a re-analysis of the deposited data

Results flagged for a closer look

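Of 28 values screened in the Old PF4 group of 10 mice, 2 held a mouse whose gap to its nearest neighbour, divided by the range of the group, exceeded Dixon's critical value for 10 values, and chance alone flags about 1 in 20 groups. Arsa, the arylsulfatase deficient in metachromatic leukodystrophy, was at 22.1 CPM in Old PF4 replicate 8, against 27.8 to 31.6 CPM in the other 9 mice (gap over range 0.599). That library also had the lowest length index of its group, -0.23, and the PF4 difference of Arsa in old mice was -0.02 without and 0.05 with the length index as a covariate. Psap was at 693 CPM in Old PF4 replicate 1, against 869 to 1047 CPM in the others (gap over range 0.496), and that library, with 3454889 reads, was the 1 Old PF4 library under 5000000. The part of these library measures in the 2 values was not tested. Groups of more than 10 mice were not screened.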

How the results depend on the processing

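Depth limits the low members most, with Gla at 10 to 95 reads per library. The age difference of Tmem106b was called in every setting run (0.26 to 0.36) and without each library in turn (0.27 to 0.31). The count of members called with age was 2 with the length index as a covariate and 1 to 2 when each library was left out, the second being Neu1 without Young Veh replicate 7. With PF4 in old mice, Tmem106b was called with DESeq2's test (-0.22) and with choroid plexus markers as a covariate (-0.23), making 1 member called in each. Leaving out each library gave -0.24 to -0.20 and 0 to 1 member called, with a call without Old Veh replicate 11 (adjusted p = 0.0193 in edgeR's test), Old Veh replicate 12 (0.0397), Old PF4 replicate 2 (0.0454) or Old PF4 replicate 1 (0.0476). Without libraries under 5000000 reads the PF4 differences in old mice of the ratios to Grn (-0.24, adjusted p = 0.0865, permutation test) and to Ctsd (-0.30, adjusted p = 0.0612, permutation test) no longer passed.

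Among the members followed singly, age differences turned sign for Tfe3 (-0.0151) with the length index, for Lamp2 (0.0156), Psap (0.00889), Glb1 (0.0111), Tfe3 (-0.0145) and Tfeb (0.00977) with choroid plexus markers, and for Ctsz (-0.0885) and Atp6ap2 (0.0270) with microglial markers. Ctsz also turned to -0.0419 between Old PF4 and Young PF4 with microglial markers. Over all 45 members, age differences turned sign for 15 with choroid plexus markers, 10 with microglial markers, 7 with the length index, 5 without low-depth libraries and 1 with oligodendrocyte markers; PF4 differences in old mice turned for 2, 3, 4, 5 and 3. None that turned was called, and the cause was not tested. Of the other results under a setting, 371 for single members and 137 for the main comparisons kept direction and side of the threshold.

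Replicate numbers did not pair the mice: the median correlation of deviations was -0.00629 over 66 pairs with the same number and -0.0146 over 760 others, and 6 of 47 libraries correlated best with their own number. With a replicate block Tmem106b was at 0.29 with age (adjusted p = 2.63e-04 in edgeR's test) and -0.23 with PF4 in old mice (adjusted p = 0.0769), and calls over all genes were 453, 10, 0, 90 and 0 (492, 6, 0, 59 and 0 without it) for age in vehicle mice, PF4 in old mice, PF4 in young mice, age in PF4 mice and the difference of PF4 effects. Calls over all genes with age were 901 with the length index, 176 without low-depth libraries and 301 with microglial markers; for PF4 in old mice they were 24 with DESeq2, 10 with choroid plexus markers, and 0 with only the groups compared, without low-depth libraries and with the length index, microglial or oligodendrocyte markers (988 to 1364 genes at an unadjusted p below 0.05 in those edgeR fits). For age in PF4 mice they were 90 with DESeq2, 98 with the length index, 39 with at least 10 reads in every library, 21 with only the groups compared, 16 with oligodendrocyte and 1 with microglial markers. Leaving out each library gave 356 to 593 calls over all genes for age in vehicle mice, 0 to 20 for PF4 in old mice and 36 to 91 for age in PF4 mice. The groups compared alone could not be fitted for the difference of PF4 effects.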
